A study of Mus musculus with 9 samples.

Results

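The cell cycle genes described here are 49 genes of the S phase and of G2 and mitosis, with the cyclins and inhibitors of G1, out of 47729 genes counted in the libraries. The rule names them by their role in the cycle and uses no measured value. The members and the other gene lists were, however, chosen with earlier results of these data known. Of the 49 symbols, 47 were matched in the deposited gene tables, and the identifiers of Cdt1 and Gins2, which have no symbol there, were taken from the GENCODE annotation. The libraries were made from the mouse midbrain at E15.75, from cells sorted for yellow fluorescent protein (YFP). All embryos were Pitx3-Cre/+, so that 1 Pitx3 allele carried Cre, and had a Rosa-lox-stop-lox-YFP reporter that Cre switches on. They differed in the number of floxed Dot1l alleles: Dot1l(+/+) with 0, Dot1l(fl/+) with 1 and Dot1l(fl/fl) with 2. Dot1l encodes the enzyme that methylates histone H3 within the body of transcribed genes. Per the study's methods the mice had a C57BL/6J background (C57/Bl6 in the labels), the floxed segment is exon 5, Cre is made from the Pitx3 locus in DA precursors that have left the cell cycle, and each library pooled embryos, with a set of all 3 genotypes from each litter. The files held 3 libraries of Dot1l(+/+), 3 of Dot1l(fl/+) and 2 of Dot1l(fl/fl); the sample Dot1l(fl/fl) 3 was not analysed here.

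A dividing cell passes G1, when D and E cyclins with their kinases release E2F transcription factors, then S phase, when MCM helicases, the PCNA clamp and nucleotide-making enzymes copy the DNA, and then G2 and mitosis, when cyclin A and B with Cdk1, the kinetochore and the spindle checkpoint separate the chromosomes. Midbrain DA neurons are born from dividing progenitors of the floor plate and leave the cycle for good as they mature, a step in which the CDK inhibitors p27 (Cdkn1b) and p21 (Cdkn1a) are known to take part. Genes of mitosis are held silent in resting cells by the DREAM complex, which binds a promoter element named CHR, often beside CCAAT boxes, while many S phase genes carry E2F sites.

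The promoters show how the members differ in sequence, a property the choice of genes did not use. Windows of 300 bases, from 250 before to 50 after each start, came from RefSeq on GRCm38.p6 and were found for 41 of the 49 members in 45 windows. Each motif was searched on both strands. The CHR element was read as TTTGAA. The box bound by NF-Y was read as CCAAT. For the E2F core, any of 3 strings counted as a match. The first of them was TTCGCGC. The second string was read as TTGGCGC. For the last of the strings the letters TTCCCGC were used, and a window counts once however many matches it holds. The CHR letters were in 70.8% of the 24 windows of G2/M members, in 17.6% of the 17 windows of S phase members and in 17.9% of all 32851 promoter windows. The E2F letters were most frequent in S phase windows, with 64.7% of these, 20.8% of G2/M windows and 8.07% of all windows, so both classes were above the share of all. CCAAT was in 76.5% of S phase and 79.2% of G2/M windows against 37.4% of all windows, and 2 or more copies were in 66.7% of G2/M windows against 11.7% of all. The following lines give the 160 bases directly before the start on the strand of the gene, with matches in capitals, for 3 mitotic members, 2 helicase members and the inhibitor Cdkn1b, which has the highest level of all members. The capitals mark matches to these motifs, and a CCAAT match on the other strand reads in reverse complement.
Cdk1, chr10:69352913-69353072, minus strand: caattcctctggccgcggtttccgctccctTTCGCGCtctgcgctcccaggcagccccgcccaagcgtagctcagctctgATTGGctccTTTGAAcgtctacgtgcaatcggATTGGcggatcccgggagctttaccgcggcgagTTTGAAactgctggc
Cdc20, chr4:118437344-118437503, minus strand: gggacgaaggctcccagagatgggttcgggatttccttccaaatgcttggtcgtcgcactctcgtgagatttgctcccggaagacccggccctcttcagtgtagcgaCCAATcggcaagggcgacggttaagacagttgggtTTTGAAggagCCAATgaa
Mki67, chr7:135716380-135716539, minus strand: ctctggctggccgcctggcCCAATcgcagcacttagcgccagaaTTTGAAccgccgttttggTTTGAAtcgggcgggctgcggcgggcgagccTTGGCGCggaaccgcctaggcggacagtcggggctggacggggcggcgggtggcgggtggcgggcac
Mcm5, chr8:75109349-75109508, plus strand: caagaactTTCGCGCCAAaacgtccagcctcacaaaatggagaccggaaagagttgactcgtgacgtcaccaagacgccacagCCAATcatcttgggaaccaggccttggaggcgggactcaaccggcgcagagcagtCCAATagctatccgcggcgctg
Mcm6, chr1:128359706-128359865, minus strand: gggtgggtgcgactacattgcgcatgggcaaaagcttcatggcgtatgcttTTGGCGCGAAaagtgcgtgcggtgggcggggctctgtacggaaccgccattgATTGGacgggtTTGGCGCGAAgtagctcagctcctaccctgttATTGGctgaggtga
Cdkn1b, chr6:134920241-134920400, plus strand: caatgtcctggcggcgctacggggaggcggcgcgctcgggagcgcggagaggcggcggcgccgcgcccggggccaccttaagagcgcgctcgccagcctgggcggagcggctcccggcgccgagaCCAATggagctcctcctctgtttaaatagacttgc
In the promoters of Mcm5 and Mcm6, E2F cores on the 2 strands overlap and form longer runs of capitals. All 3 mitotic promoters shown hold CHR letters within these bases, and the helicase and Cdkn1b promoters shown hold none. They are picked examples, and the split over all members is less clean. The windows of the G2/M members Nuf2, Nusap1, Bub1, Cenpe, Birc5, Cks2 and Ccnb1 hold no CHR letters. Those of the S phase members Mcm2, Cdc45 and E2f8 do. A match is a run of letters and not evidence of binding.

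The libraries had between 13616922 and 43674673 counts, and those labelled Dot1l(fl/fl) were the shallowest. Levels are given in CPM, which scales each library to the same size, and values of a genotype are listed in the order of replicate number. A gene at 0 could be as high as 3 counts, or 0.0687 to 0.22 CPM depending on the library, by counting error alone. Dot1l itself had 105, 84.6 and 94.6 CPM in Dot1l(+/+) and 75.5, 65.6 and 76.2 in Dot1l(fl/+). It had 64.9 and 99.1 CPM in the pair labelled Dot1l(fl/fl), so that the library labelled Dot1l(fl/fl) 2 lay inside the Dot1l(+/+) range. The count covers the whole gene and not exon 5 alone, so it does not check the deletion. For the comparisons that rest on these libraries, members called, member medians and named genes are given also without Dot1l(fl/fl) 2. The numbers of members above 0, the medians by count and the DESeq2 results are given only with it. So are the counts and medians of a wider list of cell cycle genes. As to the label of the sorted cells, all 11 markers of DA neurons and all 10 of postmitotic neurons had counts in every library and lay above the median tested gene. Of 20 markers of radial glia and progenitors, which divide at this stage, 19 had counts in every library and 5 were above the median tested gene, Vim and Fabp7 highest. All 10 microglia and macrophage markers had counts in every library and 6 were above the median. Endothelial, mesenchymal and oligodendrocyte precursor markers had 0 genes above it. Of 10 blood markers 4 had counts in every library and 3 were above the median, the highest at 10.4 CPM per kb.

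Most of the cell cycle genes were low in these neurons, with the CDK inhibitors, Pcna, Rrm1 and 3 MCM subunits as the exceptions. Levels of different genes are compared per kilobase (kb) of exon. The length takes in all annotated exons of a gene, whether or not these cells use them. Levels and ratios between genes depend on it, and the SD given with them covers the libraries only. For example, Rrm1 has 11012 such bases and Rrm2 2771, and before this scaling their means in Dot1l(+/+) were 51.0 and 6.45 CPM. The median of the 17925 tested genes with a known length, by their means in Dot1l(+/+), was 3.82 CPM per kb. By their means over all libraries, 42 of the 49 members were under it. Of the members, 24 were under 0.5 CPM per kb, 10 from 0.5 to 1, 10 from 1 to 5, 3 from 5 to 10, and 2, Cdkn1b and Cdkn1a, above 10. The order by class was G1 with a median of 1.19 CPM per kb over 6 members, S phase with 1.01 over 17, and G2/M with 0.245 over 26. Of the G2/M members 19 were under 0.5 CPM per kb and 0 reached the median tested gene, against 5 and 5 of the 17 S phase members. In bulk libraries, fewer cells of a type and less RNA per cell cannot be told apart.

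**Figure D1:**
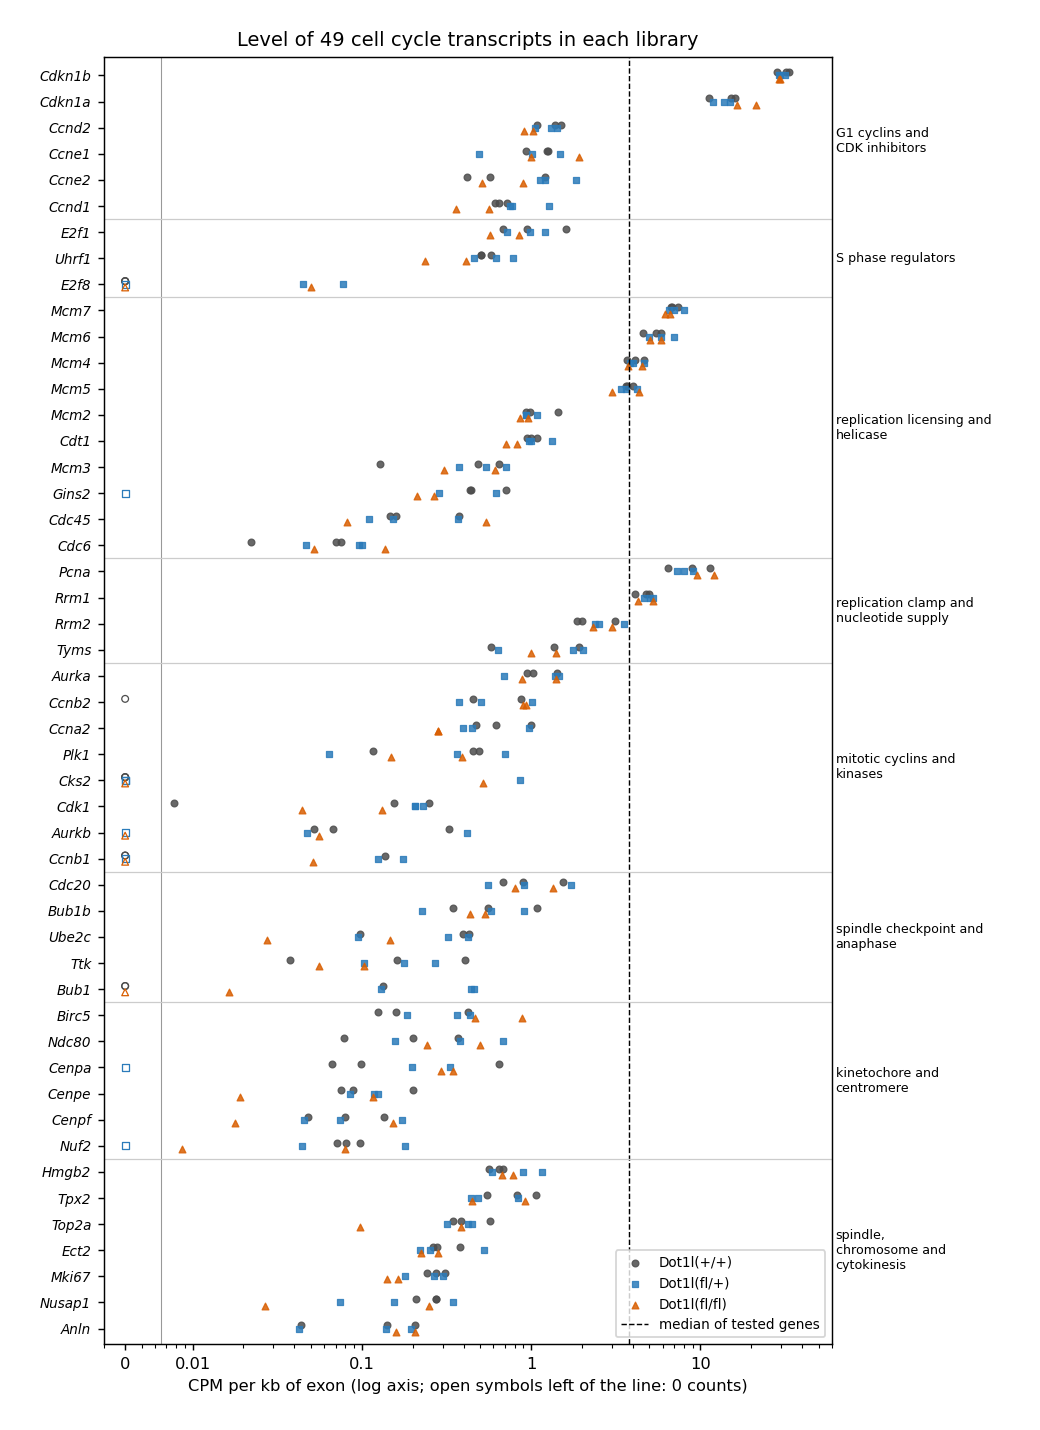
Level of each of the 49 members in CPM per kb of exon (log axis) in the 8 libraries, with a symbol per library coloured by genotype label and open symbols at the left for 0 counts. By their means over the 8 libraries, 7 members lie at or above the median of tested genes (dashed line, 3.82 CPM per kb in Dot1l(+/+)). Mcm5 lies just under it at 3.74, and all 26 G2/M members lie to its left.

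Among the G1 members, Cdkn1b, the inhibitor p27, was the highest of all 49 at 30.4 ± 1.74 CPM per kb (SD over the 8 libraries). By the Dot1l(+/+) libraries alone it was above 89.7% of tested genes. In CPM it was at 146, 152 and 129 in Dot1l(+/+), at 145, 136 and 132 in Dot1l(fl/+) and at 133 and 135 in the pair labelled Dot1l(fl/fl). These values lie close together and the groups overlap. Cdkn1a, the inhibitor p21, followed at 15.1 ± 3.14 CPM per kb. The D cyclins, which drive G1 by activating Cdk4 and Cdk6, were much lower, with Ccnd2 at 1.21 ± 0.222 and Ccnd1 at 0.714 ± 0.263 CPM per kb, and the E cyclins, partners of Cdk2, had 1.17 ± 0.421 for Ccne1 and 0.975 ± 0.477 for Ccne2. The ratio of Cdkn1b to Ccnd2, per kb, was 25.7 ± 4.54 over the 8 libraries and ran from 20.5 to 32.9. The ratio of Ccnd2 to Ccnd1 was 1.87 ± 0.59, and was under 1 in at least 1 library, with a lowest value of 0.828. The 4 cyclins therefore stand in an order, Ccnd2, Ccne1, Ccne2 and Ccnd1, whose neighbours do not differ beyond their spread.

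The S phase members covered a wide range of levels, from 9.10 CPM per kb for Pcna down to E2f8, which was at 0 counts in 5 of 8 libraries. Pcna, the sliding clamp of the replication fork, was at 9.10 ± 1.95 CPM per kb. The 6 subunits of the MCM2-7 helicase, which form a ring with a copy of each, were not level with each other. Mcm7 was at 6.90 ± 0.580, Mcm6 at 5.59 ± 0.741, Mcm4 at 4.17 ± 0.413 and Mcm5 at 3.74 ± 0.428 CPM per kb, while Mcm2 was at 1.01 ± 0.183 and Mcm3 at 0.477 ± 0.195. The ratio of Mcm7 to Mcm2, per kb, was 6.93 ± 0.963 and ran from 4.75 to 7.94 over the 8 libraries. Mcm7 exceeded Mcm3 by at least 10.5 times in each library. Transcript levels do not give protein levels, and Mcm7 overlaps Cops6 and Ap4m1 on the opposite strand. Rrm1, the large subunit of ribonucleotide reductase, was at 4.79 ± 0.421 and Rrm2, the small subunit that cells normally make in S phase, at 2.59 ± 0.579 CPM per kb, a ratio of 1.92 ± 0.386. Tyms, which makes thymidylate, was at 1.34 ± 0.559. The factors that load or fire the helicase were lower, with Cdt1 at 0.984 ± 0.181, Gins2 at 0.371 ± 0.228, Cdc45 at 0.243 ± 0.166 and Cdc6 at 0.0753 ± 0.0362 CPM per kb. Of the S phase regulators, the transcription factor E2f1 was at 0.946 ± 0.332 and Uhrf1, which carries DNA methylation through replication, at 0.513 ± 0.160. E2f8, a repressing E2F, had 0, 0 and 0 counts in Dot1l(+/+), 0, 12 and 7 in Dot1l(fl/+) and 5 and 0 in the pair labelled Dot1l(fl/fl), and was the only member that did not pass the filter on low counts.

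The G2/M members were the lowest class. Their highest were Aurka, a spindle pole kinase, at 1.15 ± 0.30 CPM per kb and Cdc20, which activates the anaphase promoting complex, at 1.06 ± 0.425. Hmgb2, a chromatin protein, was at 0.749 ± 0.200 and Tpx2, a spindle assembly factor, at 0.697 ± 0.244. Mki67, the proliferation marker Ki-67, was at 0.236 ± 0.0655 CPM per kb and Top2a, the topoisomerase that untangles chromosomes, at 0.372 ± 0.135, both detected in all 8 libraries. The ratio of Cdkn1b to Mki67, per kb, was 139 ± 42 and ran from 95.6 to 207. Cdk1, the kinase of mitosis, was at 0.154 ± 0.0881 and its partner Ccnb1 at 0.0611 ± 0.0736, below Ccnb2 at 0.630 ± 0.353 and Ccna2 at 0.560 ± 0.286. In whole counts, Ccnb1 had 15, 0 and 0 in Dot1l(+/+), 0, 21 and 15 in Dot1l(fl/+) and 4 and 0 in the pair labelled Dot1l(fl/fl). Cks2, which binds Cdk1, had counts in 2 libraries only, 17 in Dot1l(fl/+) 3 and 5 in the library labelled Dot1l(fl/fl) 2. Ccnb1 and Cks2 share sequence with processed pseudogenes, which had counts in libraries where these members had 0. Ccnb1-ps had 0, 20 and 20 counts in Dot1l(+/+), 1, 0 and 0 in Dot1l(fl/+) and 8 and 10 in the pair labelled Dot1l(fl/fl). Gm15452, a copy of Cks2, had 4, 5 and 33, then 0, 10 and 2, and then 1 and 0 in the same order. How reads were split between these members and their copies was not tested. Of the 49 members, 40 had counts in all 8 libraries, and 9, of which 7 are G2/M members, were at 0 in at least 1. Dot1l(fl/+) 3 was the only library with counts for all 49. The kinetochore and centromere members ran from 0.0703 for Nuf2 to 0.381 for Birc5, and the checkpoint members from 0.147 for Bub1 to 1.06 for Cdc20, both in CPM per kb.

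The first comparison, of the pair labelled Dot1l(fl/fl) with Dot1l(+/+), addresses the loss of both alleles. Cdkn1a had higher values and Ccna2 lower values in the pair labelled Dot1l(fl/fl), but neither passed the test over all genes. Of the 48 members tested, 0 had an edgeR adjusted p under 0.05, as had 0% of all 17988 genes, and the smallest adjusted p of a member was 0.397. At an unadjusted p under 0.05, 1 member was higher (Cdkn1a) and 1 lower (Ccna2), against 4.24% of all genes higher and 5.03% lower. DESeq2 called 0 members too, but gave an adjusted p for 3 of them only, Cdkn1a, Cdkn1b and Rrm1. Over all genes it called 214 of the 5779 with an adjusted p, or 3.7%. It had the same 2 members at an unadjusted p under 0.05, against 7.62% of all genes. The median log2 fold change was -0.11 over the members and -0.0031 over all genes tested, with 19 of 48 members above 0 against 49.5% of all genes. Over 143 other cell cycle genes, described below, the median had the other sign, 0.077, with 89 above 0. By class the medians were -0.017 over 16 S phase members and -0.42 over 26 G2/M members. Of the members, 3 (Birc5, Ccnb2 and Cdkn1a) had both of the pair labelled Dot1l(fl/fl) above all Dot1l(+/+) libraries, against 12.1% of all genes, and 8 (Ccna2, Ccnd1, Ccnd2, Cdt1, Gins2, Mcm7, Mki67 and Uhrf1) had both below, against 11.6%. Without Dot1l(fl/fl) 2, edgeR called 0 members and 50 of all genes (0.258%). Cdkn1a was then higher and Top2a lower at an unadjusted p under 0.05, against 4.48% and 6.61% of all genes. The median was then -0.13 over the members, -0.09 over the S phase members and -0.72 over the G2/M members, against -0.03 over all genes. The library labelled Dot1l(fl/fl) 1 alone was above all Dot1l(+/+) libraries for 6 members, against 28.6% of all genes, and below them for 15, against 27%. Without Dot1l(fl/fl) 1 the count at an unadjusted p under 0.05 was 0.

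Cdkn1a (chromosome 17, 29090976 to 29100727 on GRCm38) was at 57.2, 53.7 and 40.2 CPM in Dot1l(+/+), a mean of 50.4 ± 8.94 (SD, n = 3). It was at 42.3, 53.2 and 49.2 in Dot1l(fl/+), 48.2 ± 5.52 (SD, n = 3), and at 76.3 and 58.3 in the pair labelled Dot1l(fl/fl), 67.3 ± 12.7 (SD, n = 2). Both of the latter were above every other library, and the second only just. The log2 fold change was 0.42 ± 0.16 (SE), with an edgeR adjusted p of 0.397 (unadjusted 0.0167). Without Dot1l(fl/fl) 2 it was 0.60 (unadjusted edgeR p 0.00314), without Dot1l(fl/fl) 1 0.21 (0.287), and without Dot1l(+/+) 3 0.28 (0.104). The difference thus rests most on the library labelled Dot1l(fl/fl) 1. Cdkn1b had a log2 fold change of -0.087 ± 0.11 (edgeR adjusted p 0.906), or -0.099 without Dot1l(fl/fl) 2.

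Ccna2, the cyclin of S phase and G2 (chromosome 3, 36564865 to 36572150), was at 1.93, 4.07 and 2.54 CPM in Dot1l(+/+), at 4.00, 1.62 and 1.83 in Dot1l(fl/+) and at 1.15 and 1.15 in the pair labelled Dot1l(fl/fl). Both of the last, from 21 and 16 counts, were below all others, and on the opposite strand Ccna2 overlaps Exosc9, which had 10703 counts in all against 557. The log2 fold change was -1.31 ± 0.63 with an edgeR adjusted p of 0.537 and an unadjusted one, 0.0499, at the limit, and the value without Dot1l(fl/fl) 2 was -1.31 (unadjusted p 0.122). With 1 library left out at a time, that p stayed under 0.05 only without Dot1l(+/+) 1 or Dot1l(fl/+) 2. Mki67 was at 2.78, 3.13 and 2.45, then 1.81, 2.67 and 3.06, and then 1.42 and 1.66 CPM in the same order of genotypes. The pair labelled Dot1l(fl/fl) were again the lowest, with a log2 fold change of -0.86 ± 0.57 (edgeR adjusted p 0.697) and -0.97 without Dot1l(fl/fl) 2. Top2a differed between those 2 libraries, at 0.875 and 3.46 CPM, against 3.13, 5.15 and 3.47 in Dot1l(+/+). Its log2 fold change of -0.87 ± 0.53 became -2.16 without Dot1l(fl/fl) 2 and -0.18 without Dot1l(fl/fl) 1, so that a single library set its size. Cdk1 had 1, 27 and 53 counts in Dot1l(+/+) and 4 and 9 in the pair labelled Dot1l(fl/fl), a log2 fold change of -0.67 ± 1.34, or -1.62 without Dot1l(fl/fl) 2.

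**Figure D2:**
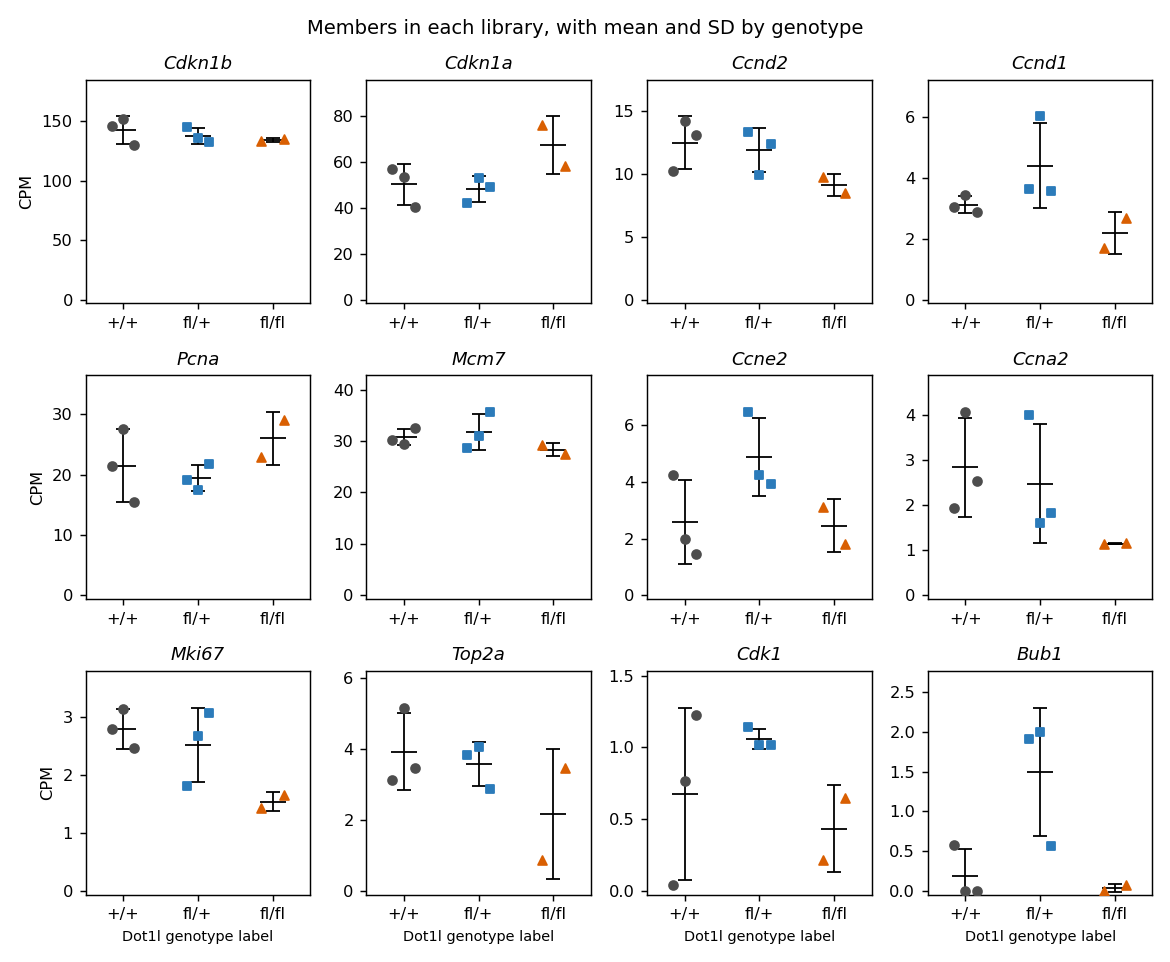
CPM of 12 members in each library, with a point per library and the mean and SD by genotype label as bars. Cdkn1a is highest and Ccna2, Mki67, Ccnd1 and Ccnd2 are lowest in the pair labelled Dot1l(fl/fl), Cdkn1b lies between 129 and 152 CPM throughout, and Top2a and Cdk1 overlap the Dot1l(+/+) values.

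Both D cyclins among the members were lowest in the pair labelled Dot1l(fl/fl). Ccnd2 was at 10.2, 14.2 and 13.1 CPM in Dot1l(+/+), 13.4, 9.95 and 12.4 in Dot1l(fl/+) and 9.73 and 8.50 in the pair labelled Dot1l(fl/fl), a log2 fold change of -0.46 ± 0.26 (edgeR adjusted p 0.621). Ccnd1 had -0.52 ± 0.47 (adjusted p 0.819). Of the replication members, Pcna had 0.28 ± 0.22, Mcm2 -0.29 ± 0.31, Cdt1 -0.39 ± 0.47, Gins2 -1.14 ± 1.04, E2f1 -0.61 ± 0.52 and Uhrf1 -0.71 ± 0.60, all as log2 fold changes with SE. The values of Ccnd2, Ccnd1, Pcna and Mcm2 without Dot1l(fl/fl) 2 were -0.36, -0.88, 0.094 and -0.22, and those of Cdt1, Gins2, E2f1 and Uhrf1 were -0.50, -0.98, -0.91 and -0.37. The 9 helicase, clamp and nucleotide supply members with a mean count of 100 or more (Pcna, Mcm2, Mcm4, Mcm5, Mcm6, Mcm7, Rrm1, Rrm2 and Tyms) had values from -0.29 for Mcm2 to 0.28 for Pcna, and from -0.22 to 0.19 without Dot1l(fl/fl) 2. Pcna shares 19.1% of its stretches of 50 bases with the processed pseudogene Pcna-ps2, which had 3451 counts in all against 4700 for Pcna, so its split of reads is uncertain.

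Of the chromosome segregation members, Birc5, the survivin subunit of the chromosomal passenger complex, was at 0.540, 0.427 and 1.43 CPM in Dot1l(+/+) and at 1.59 and 3.02 in the pair labelled Dot1l(fl/fl). These groups did not overlap, and the log2 fold change was 1.51 ± 0.88 (edgeR adjusted p 0.634), or 0.97 without Dot1l(fl/fl) 2. Aurkb, the kinase of the same complex, had -2.32 ± 2.31 on 3 and 0 counts in the pair labelled Dot1l(fl/fl). The checkpoint kinases Bub1 and Ttk had -2.35 ± 2.17 and -1.35 ± 1.31, the ubiquitin conjugating enzyme Ube2c -1.76 ± 1.53, the kinetochore subunit Ndc80 0.79 ± 0.70 and Ccnb1 -0.72 ± 2.56. Each SE is near or above the size of the value. Aurkb, Ttk, Ube2c, Ndc80 and Ccnb1, with Dot1l(fl/fl) 2 left out, had -1.42, -1.84, -1.05, 0.19 and 0.20, and Bub1 was then at 0 counts, against which no size is given. Cks2 was at 0 counts in all 3 Dot1l(+/+) libraries and had 5 counts in 1 of the pair labelled Dot1l(fl/fl), so no size is given for it. Its copy Gm15452 had 4, 5 and 33 counts in Dot1l(+/+) and 1 and 0 in that pair.

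**Figure D3:**
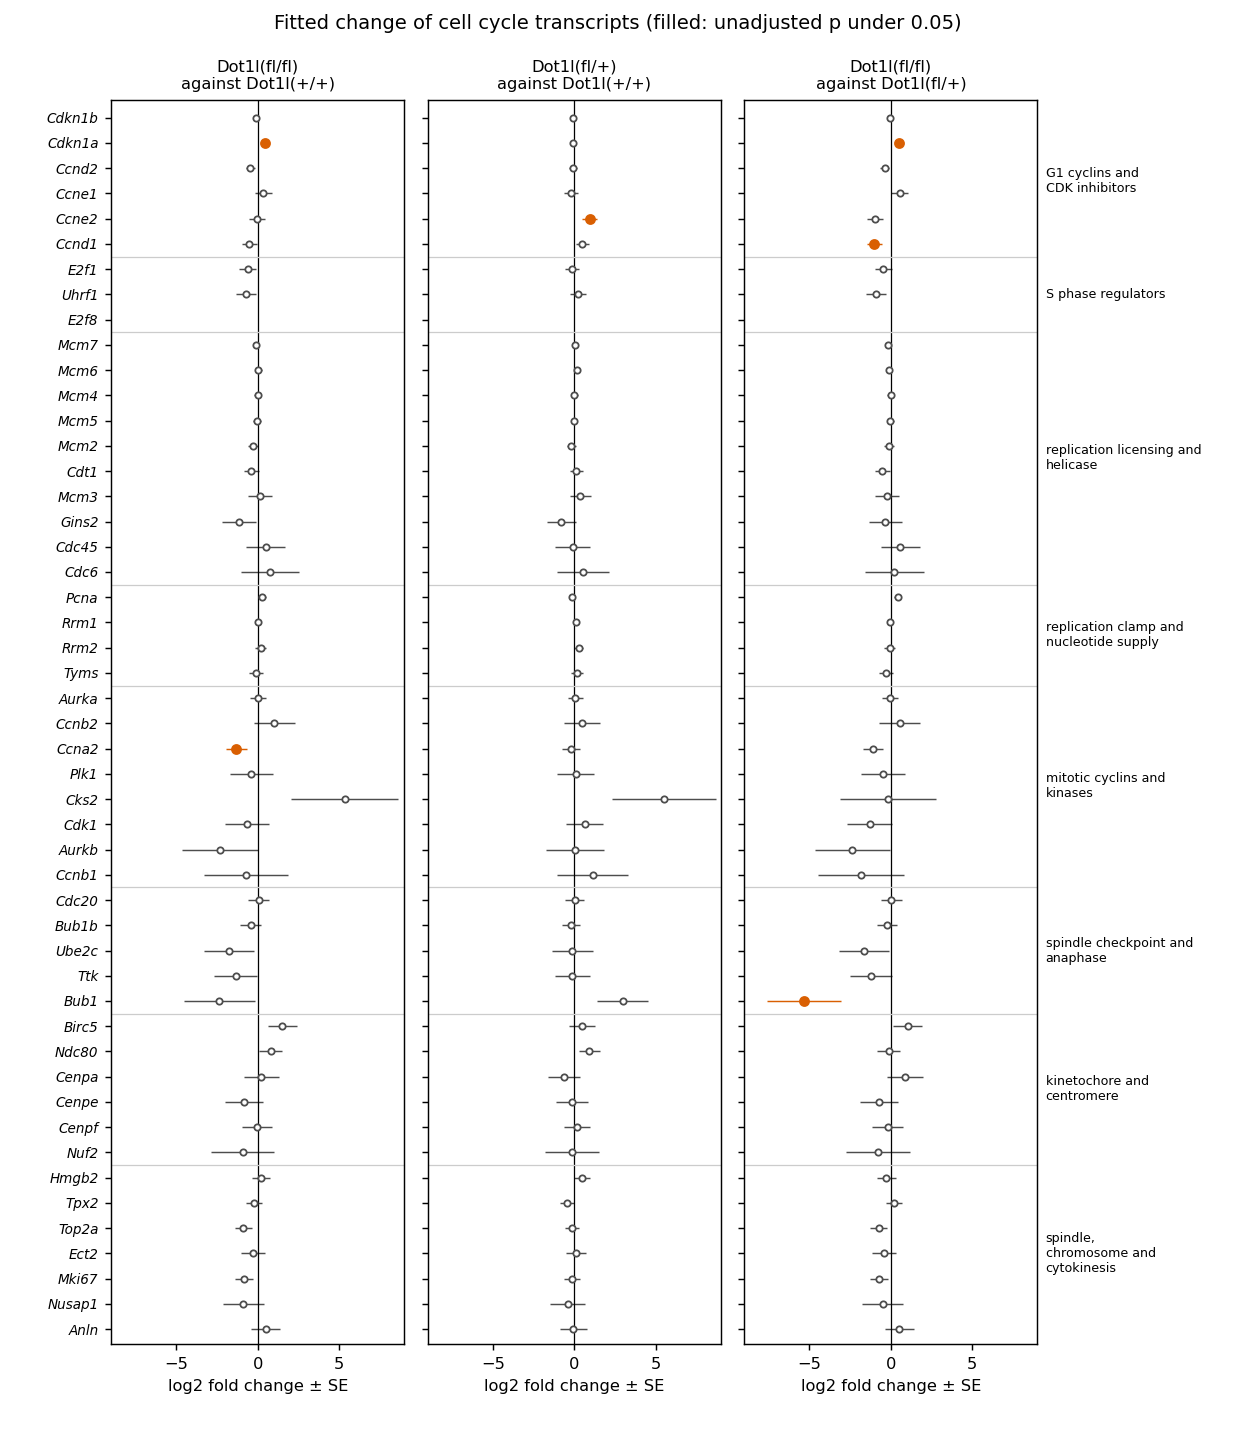
Fitted log2 fold change of each tested member with its SE in the 3 comparisons, ordered by role, with members at an unadjusted edgeR p under 0.05 filled. The filled members are Cdkn1a and Ccna2, Ccne2, and Cdkn1a, Ccnd1 and Bub1 from left to right, 0 have an adjusted p under 0.05, and bars are widest for members with few counts, such as Cks2, whose points in the left and middle panels stand against a group at 0 counts and give no size.

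The loss of a single allele was addressed by setting Dot1l(fl/+) against Dot1l(+/+). Here the members were near 0 on balance. Of 48 members, 0 had an edgeR adjusted p under 0.05, as had 0% of all genes, and the smallest adjusted p was 0.94. At an unadjusted p under 0.05, 1 was higher, the cyclin Ccne2, and 0 lower, against 2.16% and 2.86% of all genes, and DESeq2 called 0 members and 0% of all genes and had Bub1 alone at an unadjusted p under 0.05, against 4.58% of all genes. The median log2 fold change was 0.028 over the members against -0.0071 over all genes tested, with 26 of 48 above 0 against 49% of all genes. Ccne2 was at 4.25, 1.99 and 1.46 CPM in Dot1l(+/+) and 6.45, 4.25 and 3.94 in Dot1l(fl/+), groups that overlap, with a log2 fold change of 0.94 ± 0.44 (edgeR adjusted p 0.94, unadjusted 0.0441). The unadjusted p was above 0.05 when Dot1l(+/+) 2, Dot1l(+/+) 3, Dot1l(fl/+) 1 or Dot1l(fl/+) 2 was left out. In the pair labelled Dot1l(fl/fl) it was at 3.12 and 1.80 CPM, inside the Dot1l(+/+) range. Ccne2 overlaps Ints8 on the opposite strand, a gene with 10419 counts against 750. Bub1 had 15, 0 and 0 counts in Dot1l(+/+) and 57, 57 and 16 in Dot1l(fl/+), a log2 fold change of 2.98 ± 1.57. Ccnd1 was the only member whose Dot1l(fl/+) libraries were all above Dot1l(+/+), against 5.56% of all genes, and 0 members had them all below, against 5.97%. Its values were 3.63, 6.01 and 3.55 against 3.05, 3.42 and 2.87 CPM, with a log2 fold change of 0.50 ± 0.40. The log2 fold changes of Cdkn1a, Cdkn1b, Ccnd2, Pcna and Mcm2 were -0.061 ± 0.15, -0.05 ± 0.098, -0.071 ± 0.22, -0.14 ± 0.20 and -0.18 ± 0.27. Those of Mki67, Top2a, Cdk1, Ccnb1 and Ndc80 were -0.15 ± 0.48, -0.13 ± 0.44, 0.63 ± 1.14, 1.14 ± 2.17 and 0.92 ± 0.63. Cks2 had counts in 1 of 3 Dot1l(fl/+) libraries, and no size is given.

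Between the pair labelled Dot1l(fl/fl) and Dot1l(fl/+), more members had negative than positive values, and none passed the test. The edgeR adjusted p was under 0.05 for 0 of 48 members and 0% of all genes, with a smallest value of 0.998 among members. At an unadjusted p under 0.05, 1 was higher, Cdkn1a, against 1.86% of all genes, and 2 lower, Ccnd1 and Bub1, against 2.16%. DESeq2 called 0 members and 0.00422% of all genes, and had these same 3 members at an unadjusted p under 0.05, against 3.54% of all genes. The median log2 fold change was -0.23 over the members and 0.0014 over all genes, and 11 of 48 were above 0 against 50.2% of all genes. Over the 143 other cell cycle genes described below it was 0.053, with 80 above 0. Both of the pair labelled Dot1l(fl/fl) were above all Dot1l(fl/+) libraries for 3 members (Birc5, Cdkn1a and Pcna), against 10.2% of all genes, and below them for 10 (Bub1, Ccna2, Ccnd1, Ccnd2, Ccne2, Cdk1, Cdt1, Mki67, Ttk and Uhrf1), against 9.57%. This comparison shares libraries with both others, so its values are not separate evidence. Without Dot1l(fl/+) 3 the median was -0.098, and without Dot1l(fl/fl) 2 it was -0.29. The members at an unadjusted p under 0.05 were Cdkn1a alone without Dot1l(fl/+) 2, Ccnd1 and Cdkn1a without Dot1l(fl/+) 1, and Ccne2 and Pcna without Dot1l(fl/fl) 1. Without Dot1l(fl/fl) 2, Cdkn1a was higher and Bub1, Ccnd1 and Top2a were lower at that threshold, against 2.33% and 3.38% of all genes, and edgeR called 0 members and 0.0361% of all genes. The library labelled Dot1l(fl/fl) 1 alone was above all Dot1l(fl/+) libraries for 8 members, against 27.5% of all genes, and below them for 18, against 25.2%. Cdkn1a had a log2 fold change of 0.48 ± 0.16, which was 0.66 without Dot1l(fl/fl) 2 and 0.27 without Dot1l(fl/fl) 1. Ccnd1 had -1.02 ± 0.47, and -1.37 without Dot1l(fl/fl) 2. It was at 1.69 and 2.66 CPM in the pair labelled Dot1l(fl/fl), against 3.63, 6.01 and 3.55 in Dot1l(fl/+). Bub1 had 0 and 1 counts in the pair labelled Dot1l(fl/fl) against 57, 57 and 16 in Dot1l(fl/+), and since the first group has 1 count in all, its fitted value of -5.32 ± 2.28 depends on how 0 is treated. The remaining values were -0.98 ± 0.51 for Ccne2, -1.11 ± 0.63 for Ccna2, -0.93 ± 0.60 for Uhrf1, 0.42 ± 0.22 for Pcna and -0.11 ± 0.31 for Mcm2. Ccnd2 had -0.38 ± 0.26, Cdkn1b -0.037 ± 0.11, Mki67 -0.71 ± 0.56, Top2a -0.75 ± 0.52, Cdk1 -1.30 ± 1.37 and Ccnb1 -1.86 ± 2.64. Without Dot1l(fl/fl) 2, Ccne2, Ccna2, Uhrf1, Pcna and Mcm2 had -0.65, -1.11, -0.59, 0.24 and -0.036, and Ccnd2, Cdkn1b, Mki67, Top2a, Cdk1 and Ccnb1 had -0.29, -0.048, -0.82, -2.03, -2.26 and -0.93.

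A wider list of 147 other cell cycle genes, of which 143 were tested, was higher in level than the members, with a median of 2.21 CPM per kb and 62 genes at or above the median tested gene. Subunits of the anaphase promoting complex had a median of 14.9 CPM per kb over 13 genes. The other CDK inhibitors, listed with Trp53, Mdm2 and Ccng, Btg and Gadd45 genes, had 8.53 over 13. In the pair labelled Dot1l(fl/fl) against Dot1l(+/+), edgeR called 0 of the 143. DESeq2 called 1, Zwint, but gave no adjusted p for some of the list, Orc5, Ccnd3 and Tacc3 among them. Over all genes it called 3.7% of the 5779 with an adjusted p. At an unadjusted edgeR p under 0.05, 7 (4.90%) were higher, against 4.24% of all genes, and 2 (1.4%) lower, against 5.03%. The median log2 fold change of the 143 was 0.077, against -0.11 over the members. The 49 spindle, kinetochore and cohesion genes of this list had a median of 0.059, against -0.42 over the G2/M members. Zwint, a kinetochore protein that is abundant in neurons, was at 542, 633 and 560.4 CPM in Dot1l(+/+), 668, 657 and 667 in Dot1l(fl/+) and 737 and 672 in the pair labelled Dot1l(fl/fl). Every library with a floxed allele was above every Dot1l(+/+) library, and the log2 fold change was 0.28 ± 0.088 with an edgeR adjusted p of 0.276 and a DESeq2 adjusted p of 0.0359. Without Dot1l(fl/fl) 2 it was 0.35. Orc5, a subunit of the origin recognition complex, was at 19.9, 20.4 and 18.4, then 21.8, 22.8 and 24.6, and then 26.3 and 30.6 CPM, a log2 fold change of 0.54 ± 0.18 (edgeR adjusted p 0.314). Ccnd3, the D cyclin that is no member, had 0.62 ± 0.26, with a sign opposite to Ccnd1 and Ccnd2, and the checkpoint protein Bub3 had 0.28 ± 0.11. Tacc3, a spindle protein, was lower in both of the pair labelled Dot1l(fl/fl), at 5.68 and 4.97 against 8.34, 8.88 and 8.90 CPM in Dot1l(+/+), with -0.71 ± 0.30 (edgeR adjusted p 0.456). Orc5, Ccnd3, Bub3 and Tacc3, with Dot1l(fl/fl) 2 left out, had 0.43, 0.76, 0.36 and -0.62. In Dot1l(fl/+) against Dot1l(+/+), 0 of 143 were called by either tool, with 3 (2.10%) higher and 2 (1.4%) lower at an unadjusted edgeR p under 0.05, against 2.16% and 2.86% of all genes. Between the pair labelled Dot1l(fl/fl) and Dot1l(fl/+) edgeR called 0, and 7 (4.90%) were higher and 3 (2.10%) lower, against 1.86% and 2.16%.

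Summed over genes, the members took a small share of the libraries. The 17 S phase members summed to 198, 184 and 199 CPM in Dot1l(+/+), 187, 199 and 217 in Dot1l(fl/+) and 190.5 and 196 in the pair labelled Dot1l(fl/fl). The groups overlap and no genotype stands apart. The 26 G2/M members summed to 38.8, 41.4 and 34.6 CPM, to 43.5, 37.0 and 39.2, and to 30.3 and 35.7 in the same order. The library labelled Dot1l(fl/fl) 1 was the lowest, while Dot1l(fl/fl) 2 lay inside the Dot1l(+/+) range. The 20 radial glia and progenitor markers summed to 373 ± 40.8 CPM in Dot1l(+/+), 360.1 ± 17.7 in Dot1l(fl/+) (both n = 3) and 332 and 381 in the pair labelled Dot1l(fl/fl), with overlapping ranges. Microglia and macrophage markers, another type of dividing cell at this stage, ran from 107 to 152 CPM over the 8 libraries. Blood markers were at 40.5 CPM in the library labelled Dot1l(fl/fl) 2 and between 11.9 and 18.7 in the other 7. DA markers were at 6056 and 5002 CPM in the pair labelled Dot1l(fl/fl), below all others, and GABAergic markers at 264 and 235, above the 196 to 230.0 of the others. The part of these cells in the members' values was not tested.

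**Figure D4:**
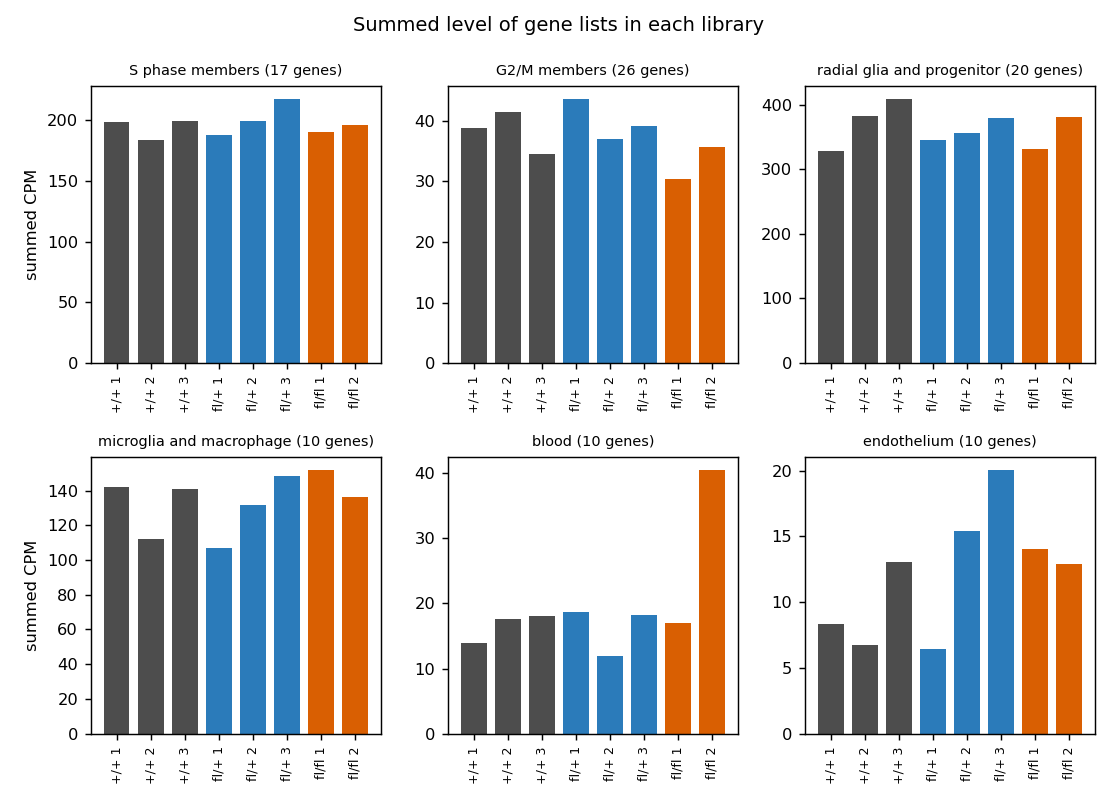
Summed CPM of the S phase members, the G2/M members and 4 lists of markers of other cells, with a bar per library coloured by genotype label. The S phase sum varies from 184 to 217 CPM and the G2/M sum from 30.3 to 43.5, and blood markers stand out in the library labelled Dot1l(fl/fl) 2.

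Members with few counts had a larger SE than those with many. The 12 members with a mean count of 100 or more had log2 fold changes from -0.46 to 0.42 in the pair labelled Dot1l(fl/fl) against Dot1l(+/+), with a median SE of 0.22. The other 36 ran from -2.35 to 5.33, the upper end being the fitted value of Cks2 against 0 counts and no size, with a median SE of 0.89. The median log2 fold change was -0.017 over the 12 and -0.40 over the 36, which hold all G2/M members. For the pair labelled Dot1l(fl/fl) against Dot1l(fl/+) these medians were -0.077 and -0.44. No such median was taken over all tested genes of like count, so whether the lower values are particular to the members was not tested. Replicates of a genotype differed by more than counting error. For the 21 tested members with a mean count under 50 the median coefficient of variation (CV, the SD within genotypes over the mean) was 66.8% where counting error alone gives 20.7%, and for 6 members above 500 counts it was 12% against 3.02%. All tested genes had like values in the same classes, 81.5% against 26.7% and 10.2% against 2.44%. Of the 49 members, 14 overlap an exon of another gene, 13 of them on the opposite strand. The kit keeps strand, but the strand setting of the counting was not given in the sources used here, and without it reads of such partners cannot be told apart. For Ccna2, Ccnd1, Ccne2, Cdc20, Cdc45, Gins2, Mcm7 and Plk1 the partner had more counts than the member. In addition, 7 members (Ccnb1, Cdc20, Cks2, Hmgb2, Mcm7, Pcna and Uhrf1) shared at least 10% of their stretches of 50 bases with another gene, and how the counting split such reads is uncertain.

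**Figure D5:**
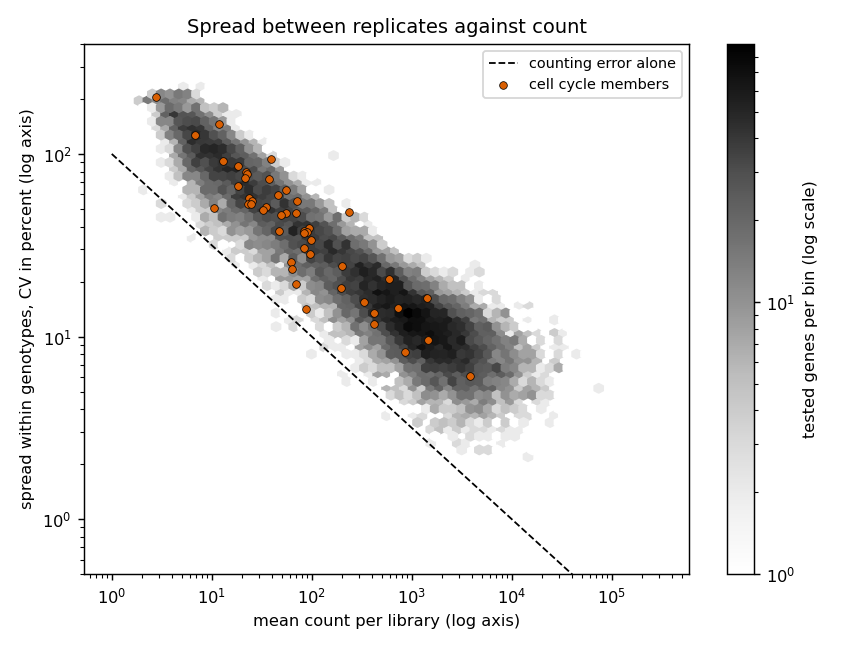
Spread within genotypes (CV in percent, log axis) against the mean count per library (log axis) for tested genes (grey bins), with cell cycle members as points and the counting error alone as a dashed line. The members follow the cloud of all genes and lie above the counting line, and most have mean counts under 100.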

How the data were processed

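RNA sequencing libraries of sorted midbrain DA neurons were made with a directional kit (NEBNext Ultra Directional) and sequenced on a NextSeq 500. The deposited values are raw counts of reads per gene and sample, which the authors made from reads mapped to GRCm38.p4. The submitters' processing notes name bcl2fastq 2.17, Trimmomatic 0.30 and DESeq2 1.10.1, and the aligner, the counter and its strand setting were not given in the sources used here. For each comparison a table of DESeq2 results by the authors was also deposited, with fold changes and p-values, from which gene symbols alone were used. Groups were taken from the genotype in the sample labels. The members and lists were chosen with earlier results of these data known.

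From the counts, 17988 of 47729 genes passed edgeR's filter on low counts (filterByExpr) and were fitted together (edgeR 4.0.16 in R 4.3.3, TMM scaling, quasi-likelihood test, 3 genotypes in a single fit with no covariate). The 3 comparisons came from that fit, two-sided, with Benjamini-Hochberg adjustment over all tested genes and a threshold of 0.05. Library totals ran from 13616922 to 43674673 counts. The libraries are pools and the labels do not tie their numbers to litters, so p-values measure the spread between these samples. CPM used TMM-scaled totals, and CPM per kb used the summed exon length of each gene in GENCODE vM21, in which 99.1% of the genes were found. Promoter motifs were searched with Python 3.11.15. Genes named in the comparisons are 10 set members (Mki67, Top2a, Cdk1, Ccnb1, Ccnd1, Ccnd2, Pcna, Mcm2, Cdkn1a and Cdkn1b), the 12 further members with the smallest p in the libraries labelled Dot1l(fl/fl) against Dot1l(+/+), the 4 further ones in each other comparison, the 5 other cell cycle genes with the smallest p in the first, and Dot1l. The code was tested on simulated data with known changes. The alternatives were other size factors (RLE), no filter, DESeq2 1.42.0, a replicate block, an offset for GC content and gene length (a spline with 4 degrees of freedom), both of these together, and leaving out each of the 8 libraries in turn.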

Additional observations from a re-analysis of the deposited data

How the results depend on the processing

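No member was called by edgeR or DESeq2 in any of the 3 comparisons under any alternative that gave it an adjusted p. In the libraries labelled Dot1l(fl/fl) against Dot1l(+/+), the number of all genes called moved from 0 to 106 with no filter, 214 with DESeq2, 6 with the replicate block and 17 with the block and the GC and length offset. The members at an unadjusted p under 0.05 numbered 2 (Cdkn1a and Ccna2). Cdkn1a alone was left with RLE size factors and with no filter, the block gave 3 with Top2a added, and the block with the offset gave Ccna2 and Top2a, without Cdkn1a. DESeq2 called 1 of the other cell cycle genes, Zwint (0.29). In Dot1l(fl/+) against Dot1l(+/+), all genes called moved from 0 to 11 with no filter, and the members at an unadjusted p under 0.05 from 1 to 2 with no filter and with the block, alone or with the offset. In the libraries labelled Dot1l(fl/fl) against Dot1l(fl/+), all genes called moved from 0 to 14 with no filter, 1 with DESeq2, 4 with the block and 9 with the block and offset. There the member median of -0.23 became -0.091 with the block and -0.13 with the block and offset, and the members at an unadjusted p under 0.05 went from 3 to 5 with the latter. The cause was not tested.

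The replicate numbers were not taken as pairs, since the labels do not tie them to litters. Libraries of the same number correlated from -0.031 to 0.045 in their deviations from the group means, against -0.051 to 0.045 for the others. Of 8 libraries, 3 correlated best with their own number. These correlations cannot decide whether the numbers pair litters. With 2 libraries labelled Dot1l(fl/fl), the deviations of the pair mirror each other, so their correlations with any other library differ only in sign. The values with a replicate block are therefore given above.

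With 1 library left out at a time, all genes called ran from 0 to 75 in the first comparison (75 without Dot1l(+/+) 2, 50 without Dot1l(fl/fl) 2 and 4 without Dot1l(fl/fl) 1), were 0 in the second and ran from 0 to 7 in the third. Where this left 1 library labelled Dot1l(fl/fl), that library was assumed to vary like the other genotypes. Members at an unadjusted p under 0.05 ran from 0 to 3, 0 to 3 and 1 to 4, and the member medians from -0.18 to -0.087, from 0.0035 to 0.10 and from -0.29 to -0.098. The direction of some values turned. In the first comparison, log2 fold changes ran from -1.62 to 0.073 for Cdk1, from -5.50 to 4.72 for Ccnb1, from 0 to 6.41 for Cks2, from -5.50 to 3.07 for Bub1 and from -0.55 to 0.062 for Dot1l. For Ccnb1, Cks2 and Bub1 both ends rest on libraries at or near 0 counts and give no size. In the second they ran from -0.31 to 0.040 for Mki67, from -0.26 to 0.12 for Top2a, from -0.20 to 0.043 for Ccnd2, from -0.33 to 0.083 for Pcna, from -0.30 to 0.040 for Mcm2 and from -0.20 to 0.040 for Cdkn1a. In the third they ran from -0.065 to 0.0015 for Cdkn1b and from -0.16 to 0.45 for Dot1l. Of 808 values of single genes under the alternatives, 790 kept their direction and their side of the threshold, 17 turned and 1, Zwint with DESeq2, newly passed it. Part of this agreement was set in advance. No gene passed the threshold in the main fit, and leaving out a library of the third genotype hardly alters a comparison. DESeq2 also gave no adjusted p for 46 of 49 members in the first comparison. Of 210 counts and medians 36 moved.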
